A study of Bos taurus with 15 samples.

Results

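The genes of antigen presentation were examined in the bovine endometrium, the lining of the uterus, on days 15 and 18 of the estrous cycle and of pregnancy. The probes were found by name: those for PSMB8, PSMB9, TAP1 and B2M, those whose gene name starts with BoLA (bovine leukocyte antigen, the cattle major histocompatibility complex or MHC), and those whose description gives one of these symbols or names the major histocompatibility complex. The rule found 17 of the 15208 probes on the array, and it used no measured value. They comprised 2 immunoproteasome probes (PSMB8 and PSMB9), 1 for B2M, 2 for MHC class I and 12 for MHC class II, whereas no probe was found for TAP1. A further 5 probes whose text names an MHC gene in other words (MIC1, MHCLA2, JSP.1, MGC134453 and BLA-DQB) were outside the rule and are described beside the 17.

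The animals were Japanese Black cows (Bos taurus), slaughtered on a day counted from artificial insemination as day 1. The groups were named NP15 and NP18 for non-pregnant cows on days 15 and 18 of the estrous cycle, and P15 and P18 for pregnant cows on the same days of gestation, with 4, 4, 3 and 4 arrays. Pregnancy was judged by eye, from whether the opened uterine horn held fetal trophoblast, and the tissue taken was caruncular endometrium. The cows' ages were not given in the sources used here, no cow received an experimental agent, and each array held the Cy3-labelled RNA of 1 endometrial sample. The P15 group was described with 4 animals, of which 3 arrays were analysed here. Signals are given in array medians, that is the processed intensity of a probe divided by the median intensity of all probes on that array. A value of 1 is therefore the level of the middle probe, and levels of different probes cannot be set against each other.

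The arrays had median intensities of 315 to 838 units, and 65.6 to 88.3% of probes were well above background. All 5 epithelial and all 7 stromal marker genes with a probe were well above background in all 15 arrays. Markers of trophoblast, the outer layer of the conceptus, summed to 38.8 to 682 array medians in P18 and 7.84 to 95.6 in NP18. On day 15 they summed to 28.9 to 41.5 in P15 and 12.3 to 57.1 in NP15, and none was called between these groups. Of the 16 on the array 12 were not well above background in any NP18 array. Non-pregnant cows thus had signal in this sum too, and it does not measure trophoblast alone. Of the 12 tested, 7 were called higher in P18 than in NP18 and 1, ELF5, lower. Among those higher TKDP4, a trophoblast Kunitz domain protein, was at least 271-fold higher. A marker was tested if well above background in at least 3 arrays, which P18 arrays alone could meet. The filter thus sets part of this tally. The arrays of each group except NP15 were scanned on 1 day of their own, and those of NP15 on 3 days, so that scan day and group cannot be told apart.

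Cells display peptides on MHC molecules, and T cells read them. For class I, the proteasome cuts proteins of the cell, the TAP transporter carries the peptides into the endoplasmic reticulum, and the heavy chain binds them together with beta-2 microglobulin (B2M). Interferons replace the catalytic subunits of the standard proteasome with PSMB8, PSMB9 and PSMB10, which gives the immunoproteasome. Class II molecules, made of an alpha and a beta chain, are carried mainly by antigen presenting cells and are loaded in endosomes, where BOLA-DM exchanges the peptide and BOLA-DO restrains DM. The ruminant trophoblast secretes interferon tau (IFNT) before it attaches, and the endometrium responds to it.

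The probes of the genes on which the results turn are printed to show the sequences by which members of a family were read. The probes were compared only with one another, and whether a probe also binds transcripts of other family members was not tested. They are 60 bases long and are given 5′ to 3′ as in the scanner files, whole for probes read as coding sequence and otherwise as the last 30 bases. Capitals mark AATAAA, the polyadenylation signal.
PSMB8: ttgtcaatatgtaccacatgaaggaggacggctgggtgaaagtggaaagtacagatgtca
PSMB9 (last 30): cttctttattttgtAATAAActttctggaa
B2M (last 30): ttttatgctttatgcacataatcagaagtc
BOLA, class I (last 30): ctgttaccctcagagacgaggctggaccat
BOLA-DMA: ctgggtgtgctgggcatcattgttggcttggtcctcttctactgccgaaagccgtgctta
BOLA-DMB (last 30): ctctgaggAATAAActggtagaatcctgtt
BOLA-DQA (last 30): gtatctatggaagcAATAAAtctctttatg
BOLA-DQA1: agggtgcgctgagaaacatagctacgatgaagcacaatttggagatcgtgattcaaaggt
BOLA-DQA2: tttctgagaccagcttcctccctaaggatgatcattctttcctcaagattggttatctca
BOLA-DQB (last 30): tgaaaccatttgcctggctatagaattttt

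AATAAA was found on the probe strand in 4 of the 17 probes (PSMB9, BOLA-DMB, BOLA-DQA and BoLA-DRB3), against 11.3% of all probes. The longest run of bases shared by any pair of the 22 MHC and antigen presentation probes was 11. The array probes carry no genome build and no coordinates. In the RefSeq gene order of ARS-UCD2.0, PSMB8 and PSMB9 lie on either side of TAP1, between BOLA-DYA, BOLA-DYB, BOLA-DOB and TAP2 on one side and BOLA-DMB and BOLA-DMA on the other. Genes of this stretch thus serve both class I (PSMB8, PSMB9) and class II (BOLA-DM and BOLA-DO).

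On day 18, transcripts of PSMB9, B2M and the class II loading genes BOLA-DMA, BOLA-DMB and BOLA-DOB were more abundant in pregnant than in non-pregnant cows, by 2.39- to 3.38-fold. Of the 15 probes tested (those well above background in at least 3 arrays; BOLA-DYA and BOLA-DQA were not), 5 were called higher and 1 lower in P18 than in NP18, at an adjusted p below 0.05 in limma and a change over 2-fold. Over all 13164 probes tested, 5.75% were called, 3.65% higher and 2.1% lower. The median log2 fold change was 1.00 over the 15 probes (0.72 with the 3 probes that were not well above background in 1 of the groups set at their bound) and 0.07 over all probes. With scan day as a random block none of the 6 calls was made. In tissue, more cells of a type and more RNA per cell cannot be told apart. With the methods' t-test after Benjamini-Hochberg adjustment 3 of the 6 calls were made, and those of PSMB9, BOLA-DMA and the HLA-B-like probe were lost.

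On day 15 none of the 15 probes was called between P15 and NP15 by limma or, after adjustment, by the methods' t-test, where limma called 0.798% of all probes. There, 2 of them had an unadjusted p below 0.05 (BOLA, lower, and BOLA-DOB, higher), as did 14.9% of all probes, and the median log2 fold change was 0.15 against -0.06 over all probes.

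**Figure D1:**
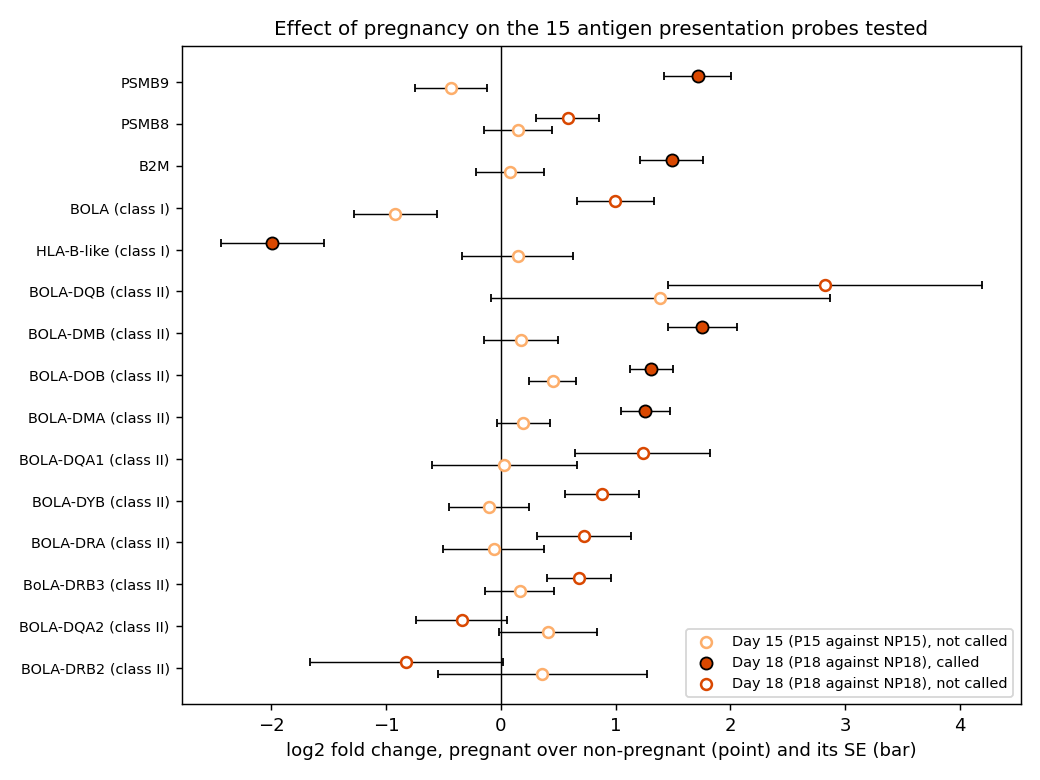
Pregnancy effect as a log2 fold change, pregnant minus non-pregnant (horizontal axis, with the SE of limma as a bar), of the 15 antigen presentation probes tested, on day 15 (P15 against NP15) and day 18 (P18 against NP18). Filled points were called: none on day 15, and on day 18 PSMB9, B2M, BOLA-DMB, BOLA-DOB and BOLA-DMA on the right and the HLA-B-like probe on the left; the day-18 points of BOLA-DQB, BOLA-DYB and the HLA-B-like probe are fitted values in which 1 group had no array well above background.

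PSMB9, the inducible beta-1 subunit of the proteasome, gave 26.5, 17.3, 18.2 and 35.1 array medians in NP15 and 15.0, 21.3 and 16.0 in P15. It gave 16.1, 24.4, 24.9 and 20.2 in NP18 and 66.6, 67.9, 110.3 and 46.2 in P18. The first 3 groups overlapped, and every P18 array was above all 11 arrays of the other groups. Of all probes tested, 10.5% had every P18 array above every NP18 array, and 26.7% had every P18 array above every P15 array. The log2 fold change of PSMB9 was 1.72 ± 0.29 (SE) on day 18 (limma, adjusted p = 0.0032; exact two-sided permutation p = 0.0286, the smallest that 4 against 4 allows) and -0.44 ± 0.32 on day 15 (adjusted p = 0.553). The difference between the days, tested as an interaction in limma, was 2.15 ± 0.43 (adjusted p = 0.0200). PSMB9 was the only one of the 15 probes called in that test, in which 2.72% of all probes were called. This call was lost without P15 replicate 1 and without P15 replicate 3, with 1.93 as the lowest and 2.35 as the highest log2 value when any array was left out.

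PSMB8, the inducible beta-5 subunit, was not called between P18 and NP18. Its signal was 4.96, 4.44, 2.73 and 2.41 array medians in NP15 and 3.85, 4.16 and 3.57 in P15. It was 4.78, 8.92, 7.81 and 5.67 in NP18 and 13.2, 9.05, 8.31 and 9.54 in P18. All arrays of day 18 were above those of P15, where 26.7% of all probes tested had P18 wholly above P15. For PSMB8, NP18 and P18 overlapped, as did NP15 and NP18. The pregnancy effect on day 18 was 0.58 ± 0.27 on the log2 scale (limma, adjusted p = 0.209; exact permutation p = 0.0571), and that on day 15 was 0.15 ± 0.29 (adjusted p = 0.859). From P15 to P18 the signal rose by 1.36 ± 0.29 (adjusted p = 0.0095). From NP15 to NP18 the log2 difference was 0.93 ± 0.27 (adjusted p = 0.0432), a change below 2-fold and thus not called.

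Within the same arrays, PSMB9 changed by 1.13 ± 0.35 more than PSMB8 on the log2 scale between NP18 and P18 (exact permutation p = 0.0286, and 0.0762 after adjustment over the 8 such comparisons made). The log2 ratio was higher in each of the 4 P18 arrays than in any NP18 array. The constitutive subunits that are replaced, PSMB6 by PSMB9, PSMB5 by PSMB8 and PSMB7 by PSMB10, were not called in either comparison of pregnancy. Their log2 fold changes on day 18 were -0.06 ± 0.32 for PSMB6, -0.26 ± 0.30 for PSMB5 and -0.38 ± 0.28 for PSMB7. PSMB9 thus changed by 1.78 ± 0.48 more than PSMB6, and PSMB10 by 1.22 ± 0.44 more than PSMB7 (exact permutation p = 0.0286, adjusted p = 0.0762 for each). PSMB8 changed by 0.84 ± 0.49 more than PSMB5 (exact permutation p = 0.0857, adjusted p = 0.137). Of these day-18 differences none passed 0.05 after adjustment, nor did any of the 4 on day 15.

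The counterparts had values of their own on day 15. PSMB5 was at 52.3, 31.0, 36.7 and 41.3 array medians in NP15 and at 25.3, 25.3 and 23.7 in P15. Every P15 array was thus lower, as for 9.71% of all probes tested, with a log2 fold change of -0.68 (limma, adjusted p = 0.350). PSMB6 reached 109 and PSMB7 40.8 in NP18 replicate 4, which was also the highest array for PSMB5, at 112. PSMB10, the inducible beta-2 subunit, was at 26.8, 53.7, 46.9 and 30.0 in NP18 and at 74.9, 75.6, 67.7 and 54.5 in P18. PSMB10 was thus higher in P18 without overlap, as were 10.5% of all probes tested. Its log2 fold change was 0.84 ± 0.29 (adjusted p = 0.0926), and it was called between P15 and P18, at 1.24 (adjusted p = 0.017).

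**Figure D2:**
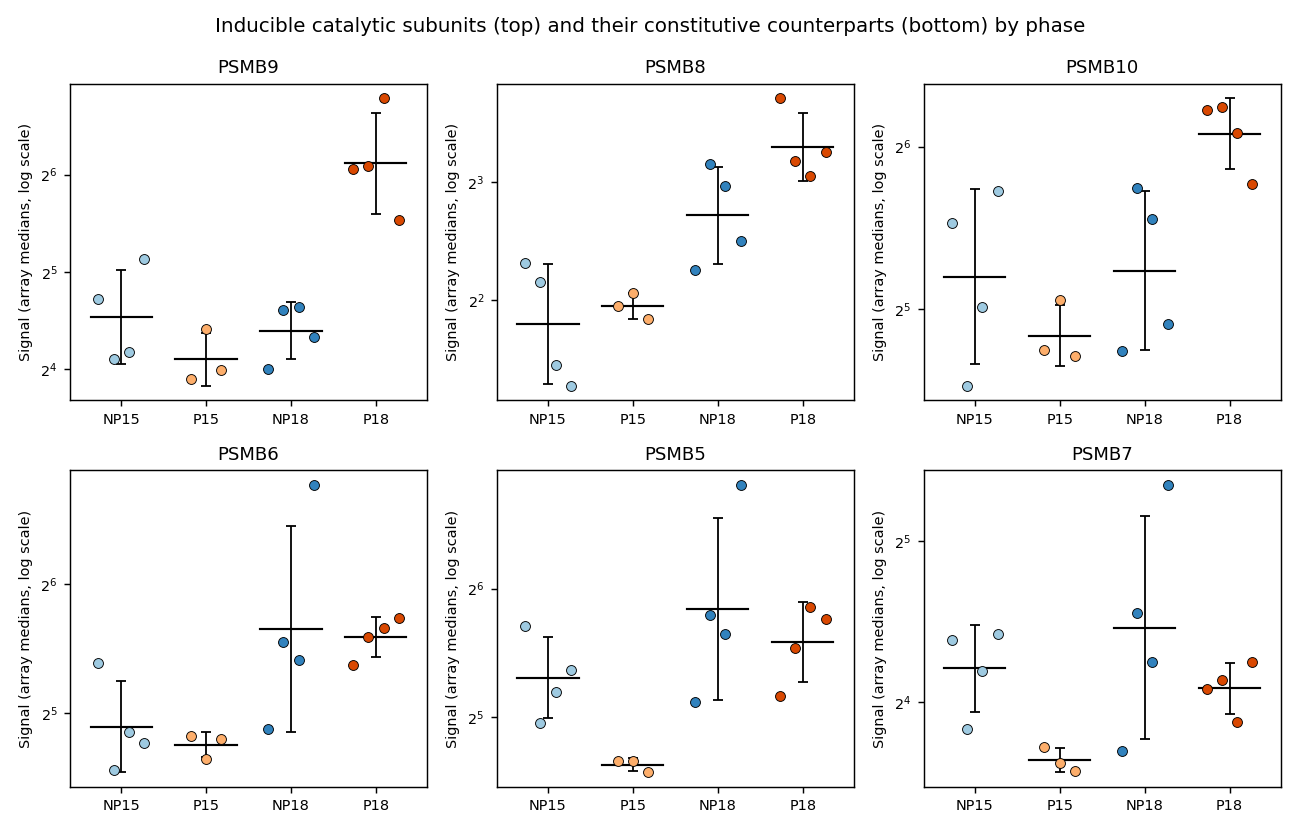
Signal in array medians (vertical axes, log scale) of the inducible catalytic proteasome subunits (top) and the constitutive subunits they replace (bottom) in the 15 arrays, by phase; points are arrays, and bars are the mean ± SD of log2 values. PSMB9 and PSMB10 in P18 lie above all NP18 arrays, PSMB8 is higher in NP18 and P18 than in P15, and the NP18 array at the top of the PSMB6, PSMB5 and PSMB7 panels is replicate 4.

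B2M, the light chain shared by class I molecules, had overlapping values in the first 3 groups. It gave 124, 96.7, 169 and 251 array medians in NP15, 161, 148 and 167 in P15, and 126, 147, 155 and 188 in NP18. In P18 it gave 392, 409.7, 598 and 349, above every array of the other groups. Of all probes tested, 10.5% had P18 wholly above NP18 and 26.7% wholly above P15, as B2M did. The difference from NP18 was 1.49 ± 0.27 on the log2 scale (limma, adjusted p = 0.0057; exact permutation p = 0.0286) and that from P15 was 1.43 ± 0.30 (adjusted p = 0.0075). On day 15 it was 0.08 ± 0.30 (adjusted p = 0.933), and the interaction of 1.41 ± 0.40 did not pass the threshold (adjusted p = 0.0721).

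Among class I heavy chains, the probe named BOLA in the file, described as a classical class I antigen, followed another order. It gave 382, 254, 118 and 292 array medians in NP15 and 91.9, 166 and 135 in P15. It gave 107, 112, 158 and 156 in NP18 and 299, 171, 298 and 310.0 in P18. P18 lay above both NP18 and P15 without overlap, but NP15 was about as high as P18. Of all probes tested, 10.5% had P18 wholly above NP18 and 26.7% had P18 wholly above P15. The log2 fold change of the BOLA probe was 1.00 ± 0.34 on day 18 (limma, adjusted p = 0.0914; exact permutation p = 0.0286) and -0.92 ± 0.37 on day 15 (adjusted p = 0.253), and the interaction was 1.92 ± 0.50 (adjusted p = 0.0544). Without NP15 replicate 3, the lowest of its group, the day-15 difference was -1.26 and was called, and so was the interaction, at 2.26.

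A related class I probe, MGC134453, which RefSeq also names BOLA, was called higher in P18. It gave 295, 275, 497 and 396 array medians in NP18 and 773, 805, 1045 and 696 in P18, with a log2 fold change of 1.21 ± 0.28 (limma, adjusted p = 0.0210). That call was lost with quantile normalization, with the methods' t-test after Benjamini-Hochberg, and without NP18 replicate 2, P18 replicate 2 or P18 replicate 3. On day 15 the log2 fold change was 0.18 ± 0.31 (adjusted p = 0.83), opposite in sign to the BOLA probe.

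The HLA-B-like probe, whose description compares it with human HLA-B, was near background. It gave 0.0642, 0.0655, 0.0324 and 0.0455 array medians in NP15 and 0.0480, 0.0623 and 0.0562 in P15. It gave 0.0651, 0.133, 0.188 and 0.348 in NP18, and 0.0668, 0.0207, 0.0367 and 0.0444 in P18, where no array was well above background. It was called lower in P18 than in NP18 (limma, adjusted p = 0.0170), at least 1.21-fold, and higher in NP18 than in NP15, by 1.63 ± 0.45 on the log2 scale (adjusted p = 0.0334). The first call was lost with normexp background, with the fit of those groups alone, with the methods' t-test after Benjamini-Hochberg and without NP18 replicate 3 or P18 replicate 2. The second was lost without any 1 of 6 arrays of NP15 and NP18.

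**Figure D3:**
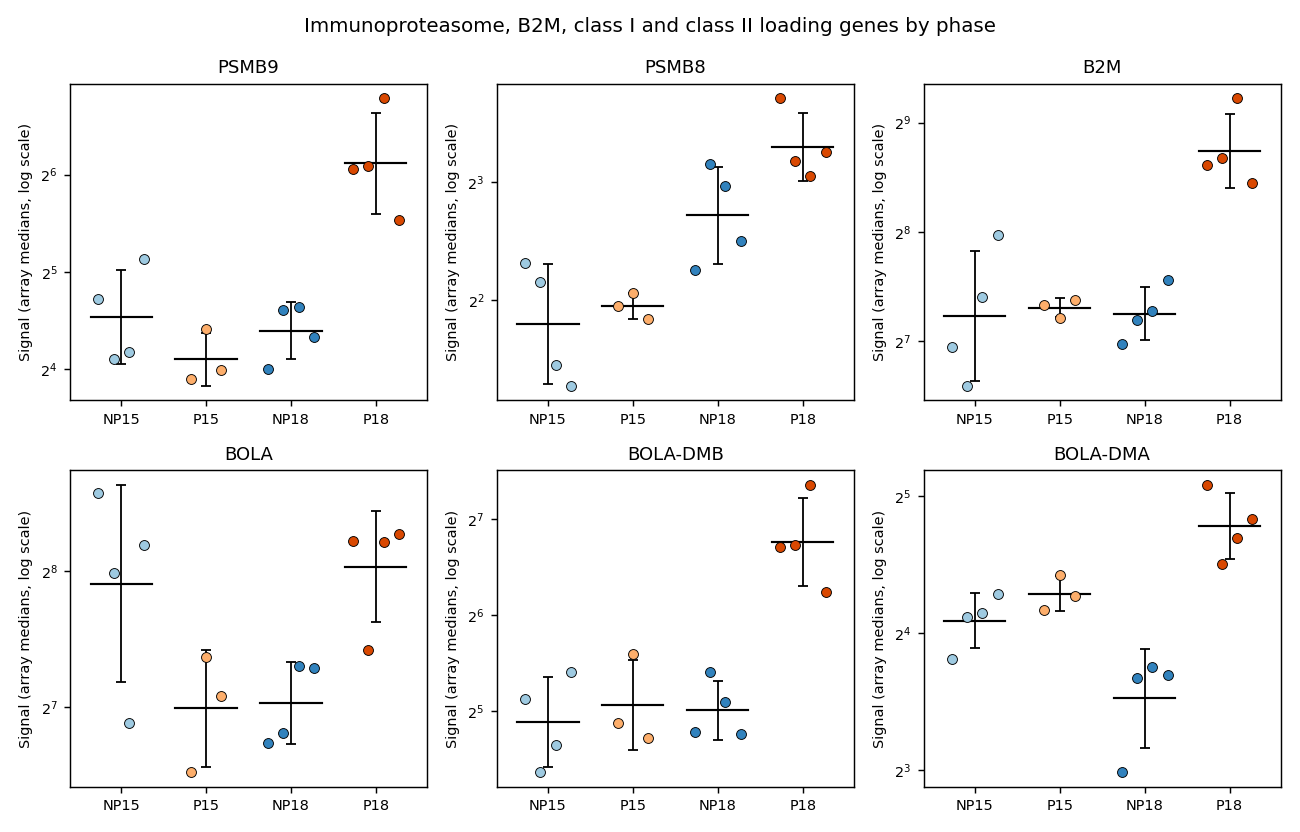
Signal in array medians (vertical axes, log scale) of PSMB9, PSMB8, B2M, the class I probe BOLA and the class II genes BOLA-DMB and BOLA-DMA in the 15 arrays, by phase; points are arrays, and bars are the mean ± SD of log2 values. In P18, PSMB9, B2M, BOLA-DMB and BOLA-DMA lie above all other arrays, PSMB8 overlaps NP18, and BOLA overlaps NP15. Of all probes tested, 10.5% had P18 wholly above NP18 and 26.7% had P18 wholly above P15.

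Of the 12 class II probes 10 were tested, and 3 were called higher in P18 than in NP18: BOLA-DMB, BOLA-DMA and BOLA-DOB. BOLA-DQA1, at a log2 fold change of 1.24, was not called, and whether the called and uncalled class II probes differ was not tested. The median log2 fold change of the 10 was 1.06 (0.70 with BOLA-DQB and BOLA-DYB at their bound), and 8 of them were above 0.

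BOLA-DMB, the beta chain of the peptide exchanger DM, gave 34.9, 20.5, 25.0 and 42.5 array medians in NP15 and 29.3, 48.3 and 26.3 in P15. It gave 27.4, 42.4, 34.0 and 27.0 in NP18 and 104, 107, 164 and 75.7 in P18. No array outside P18 exceeded 48.3. BOLA-DMB was thus wholly higher in P18, as were 10.5% of all probes tested against NP18 and 26.7% against P15. The log2 fold change was 1.76 ± 0.30 on day 18 (limma, adjusted p = 0.0033; exact permutation p = 0.0286) and 0.18 ± 0.32 on day 15 (adjusted p = 0.846), with an interaction of 1.58 ± 0.44 (adjusted p = 0.0666). From P15 to P18 it rose by 1.70 ± 0.32 (adjusted p = 0.0050).

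BOLA-DMA, the alpha chain of DM, gave 14.04, 17.3, 17.7 and 19.5 array medians in NP15 and 18.0, 21.4 and 19.3 in P15. It gave 7.89, 12.7, 13.4 and 12.9 in NP18 and 33.9, 22.7, 25.9 and 28.6 in P18. Its NP18 arrays were below all arrays of day 15, and its P18 arrays were above them. Of all probes tested, 7.11% had NP18 wholly below NP15, 26.7% had P18 wholly above P15 and 10.5% had P18 wholly above NP18. The log2 fold change of BOLA-DMA was 1.26 ± 0.21 on day 18 (limma, adjusted p = 0.0030; exact permutation p = 0.0286). From NP15 to NP18 it was -0.57 ± 0.21 (adjusted p = 0.0939), and from P15 to P18 it was 0.49 ± 0.23 (adjusted p = 0.151). DMB was thus called higher in P18 than in P15 and DMA was not, and the difference between the chains was not tested.

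BOLA-DOB, the beta chain of DO, was dim but well above background in all 15 arrays. It gave 0.162, 0.112, 0.118 and 0.143 array medians in NP15 and 0.183, 0.194 and 0.167 in P15. It gave 0.133, 0.122, 0.112 and 0.104 in NP18 and 0.244, 0.355, 0.318 and 0.260 in P18. Pregnant cows lay above non-pregnant cows without overlap on both days, as they did for 5.93% of all probes tested on day 15 and 10.5% on day 18. The log2 fold change of BOLA-DOB was 0.45 ± 0.21 on day 15 (limma, adjusted p = 0.320) and 1.31 ± 0.19 on day 18 (adjusted p = 0.0010). On day 18 the adjusted p was the lowest of the 15 probes. The call was lost with normexp background correction, where the log2 value was 0.94.

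None of the probes for DR, the main class II molecule of cattle, was called on day 18. BoLA-DRB3, the main expressed DR beta gene, gave 29.6, 41.8, 41.7 and 25.5 array medians in NP18 and 47.0, 56.2, 82.3 and 40.5 in P18. Its log2 fold change was 0.68 ± 0.28 (limma, adjusted p = 0.151), and that of BOLA-DRA, the alpha chain, was 0.72 ± 0.41 (adjusted p = 0.298). The groups overlapped for both, and BOLA-DRB2, another DR beta probe, had -0.82 (adjusted p = 0.587). On day 15 BoLA-DRB3 ranged from 18.5 to 36.3 in NP15 and from 26.9 to 27.7 in P15, with a log2 fold change of 0.16 (adjusted p = 0.848). BOLA-DYB, a chain found in ruminants, was well above background in 1 of 4 P18 arrays and in no NP18 array, and BOLA-DYA in 2 of the 15 arrays.

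The DQ genes vary between cattle in number and sequence, and the part of this variation in the values below was not tested. Several DQ probes spread widely among cows of 1 phase, BOLA-DQA and BOLA-DQB mainly through 1 array. The SD of log2 values within a phase was 0.43 to 0.82 for BOLA-DQA2, against 0.21 to 0.76 for BOLA-DRA. The BOLA-DQA probe, named BOLA-DQA5 by RefSeq, gave 13.7 array medians in P18 replicate 2 and was not well above background in the other 14 arrays, where it was at most 0.0827. The BOLA-DQB probe gave 8.99 in the same array and at most 0.0367 elsewhere, where only P15 replicates 1 and 3 were well above background. No NP18 array of BOLA-DQB was well above background, so that it was at least 1.45-fold higher in P18 (limma, adjusted p = 0.222). Without P18 replicate 2 no array of either group was well above background, and no fold can be given.

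BOLA-DQA1 and BLA-DQB, named BOLA-DQB1 by RefSeq, were well above background in all 15 arrays and varied together. BOLA-DQA1 was 0.131, 0.822, 0.111 and 0.234 array medians in NP18 and 0.719, 0.954, 0.369 and 0.342 in P18. BLA-DQB was 4.28, 14.8, 3.53 and 5.41 in NP18 and 31.0, 34.3, 5.88 and 6.24 in P18. Within day 18, NP18 replicate 2 and P18 replicates 1 and 2 were thus the high arrays of both probes. On day 15, NP15 replicate 1 reached 0.823 for BOLA-DQA1 and 22.7 for BLA-DQB. BLA-DQB was at least 10.5 in every NP15 array, while BOLA-DQA1 was 0.210 to 0.327 in NP15 replicates 2 to 4. Over the 15 arrays Pearson's r of their log2 values was 0.79, and it was 0.82 after the mean of each phase was subtracted; the arrays share their scaling. The same values for BOLA-DQA1 and BOLA-DQA2, another DQ alpha probe, were -0.10 and -0.01. The day-18 log2 fold changes were 1.24 ± 0.59 for BOLA-DQA1 (limma, adjusted p = 0.213), 1.25 ± 0.59 for BLA-DQB (adjusted p = 0.211) and -0.34 ± 0.40 for BOLA-DQA2 (adjusted p = 0.642). Without NP18 replicate 2 that of BOLA-DQA1 was 1.85 and was called.

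Other probes were likewise high in some cows only. BOLA-DRB2, described as similar to human HLA-DRB5, gave 0.0375, 0.511, 0.492 and 0.325 array medians in NP18. In P18 it gave 0.857 in replicate 3 and at most 0.0791 in the others. The class I probe JSP.1, outside the rule, gave 7.54, 0.0549, 2.39 and 4.26 in P18, and 0.0186, 1.49, 0.107 and 0.0134 in NP18. Its log2 fold change of 4.17 had an SE of 2.06 (limma, adjusted p = 0.233). MIC1, a class I chain-related gene, was at 0.218 to 2.38 in P18 and 0.160 to 0.856 in NP18, and MHCLA2 was not well above background in any array.

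**Figure D4:**
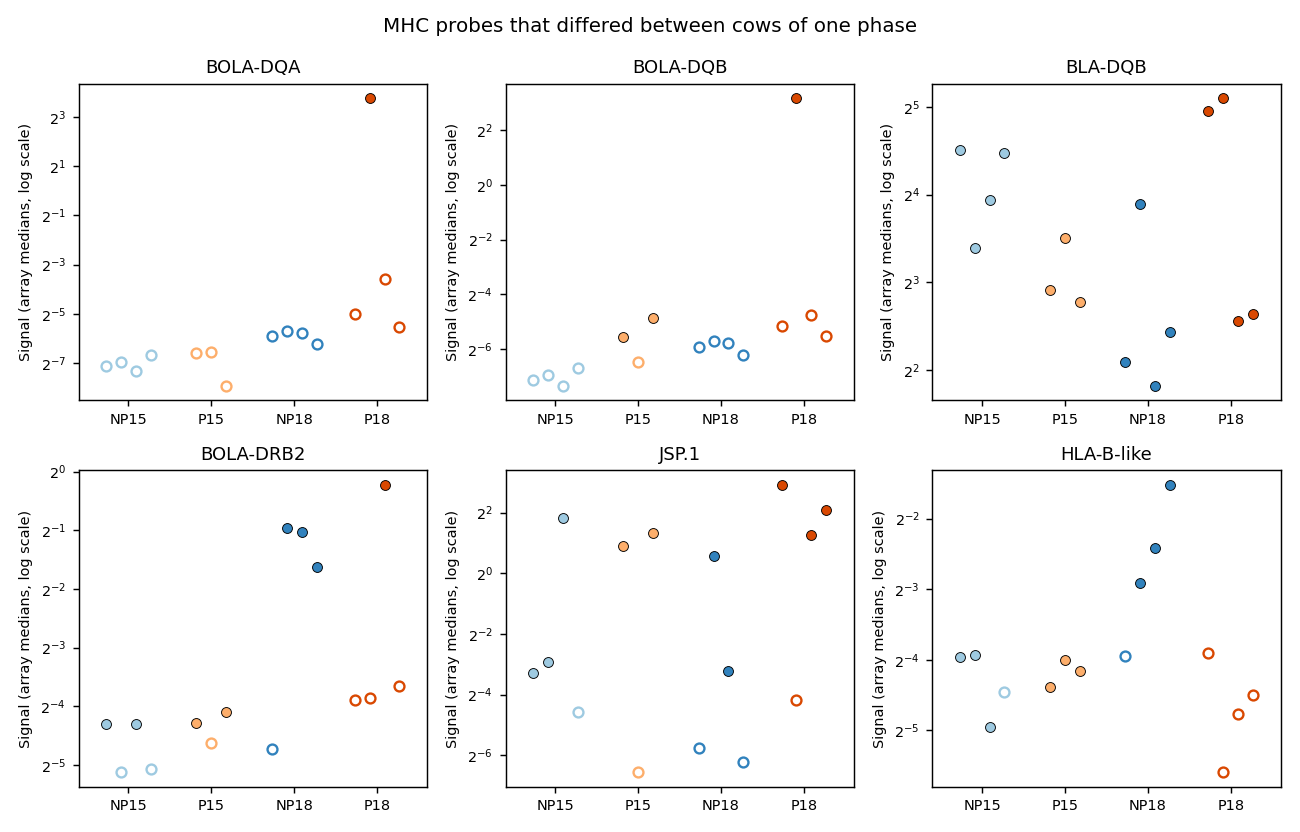
Signal in array medians (vertical axes, log scale) of 6 MHC probes in the 15 arrays, by phase; each point is 1 array, and open points were not well above background. BOLA-DQA and BOLA-DQB are high in P18 replicate 2 alone, BLA-DQB and JSP.1 spread over several doublings within a phase, and the HLA-B-like probe is not well above background in P18.

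Between days, the comparison of P18 with P15 called 4 of the 15 probes, all higher in P18: PSMB9 by 2.01 ± 0.32, DMB and PSMB8 as above, and B2M. Of all probes 11.9% were called there, 7.58% higher, and the median of the 15 was 0.99 against 0.12 over all probes. Between NP18 and NP15 only the HLA-B-like probe was called, where 7.16% of all probes were, and the median of the 15 was 0.02, as over all probes. With scaling to the 75th percentile of each array the log2 values of P18 against P15 moved by -0.30 for the median probe and those of NP18 against NP15 by -0.12. The 4 calls were made under that scaling too, with B2M at 1.14 and PSMB8 at 1.06. Comparisons that share a group are not independent of each other.

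With scan day as a random block, no antigen presentation probe was called in any comparison. This block cannot change the size of a day-18 log2 fold change, since NP18 and P18 each had 1 scan day of their own. The adjusted p became 0.151 for BOLA-DOB, 0.271 for PSMB9, B2M and BOLA-DMA, and 0.281 for BOLA-DMB. Of all 13164 probes 49 were then called between P18 and NP18. The part of scan day in these results was not tested further, since no scan day held more than 1 group.

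Other genes of the pathway were counted by lists. Of 23 genes listed for class I loading and peptide supply, 15 had a probe, of which 6 were above 0 and none was called in P18 against NP18 by limma (6 had an unadjusted p below 0.05), with a median log2 fold change of -0.14. Of all probes tested, 55.7% were above 0 there and 24.1% had an unadjusted p below 0.05. TAP2, the partner of TAP1 in the peptide transporter, had 1.05 ± 0.41 (limma, adjusted p = 0.133). PSME2, a subunit of the proteasome activator, had 0.93 ± 0.23 (adjusted p = 0.0266), below the 2-fold limit. Of 7 class II loading genes 6 were above 0, with a median of 0.27, and CTSS, the protease that removes the invariant chain, was called higher at 1.16 ± 0.27 (adjusted p = 0.0217). CD74, the invariant chain itself, had -0.33 ± 0.53 (adjusted p = 0.746).

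Among the regulators of these genes, IRF9, which carries interferon signals to the nucleus, rose by 3.17 ± 0.28 on the log2 scale in P18 against NP18 (limma, adjusted p = 2.75e-05). IFNAR1, a chain of the type I interferon receptor, was called lower (adjusted p = 0.0179), at least 1.04-fold, with no P18 array well above background. The IRF1 probe, which reads a direct activator of MHC genes, had 0.71 ± 0.31 (adjusted p = 0.176). On day 15 none of the genes of these 3 lists was called by limma. An unadjusted p below 0.05 was found for 1 of class I loading and 1 of class II loading, and for 14.9% of all probes.

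Signals of PSMB9 and BOLA-DMB were the closest among the 11 members well above background in all 15 arrays. Pearson's r of their log2 values over the 15 arrays was 0.96, and 0.93 after subtraction of phase means. Before subtraction it was 0.91 for PSMB9 with B2M and 0.64 for PSMB9 with PSMB8, while that of B2M with the class I probe BOLA was 0.41. After subtraction of phase means these values were 0.66, -0.005 and -0.02. Among 4826 probes with a symbol that were well above background in all 15 arrays, those most like PSMB9 were BOLA-DMB, CASP4, PAFAH2, RBCK1 and NMI (r = 0.959 to 0.952). The closest to B2M were IRF5, LAT2 and SASS6 (0.956 to 0.943), and most like BOLA-DMB were NMI, LOC282255, PSMB9, SHISA5 and CTSS (0.976 to 0.955). PSMB8 was most like DHX38, RAB24, NFYA, SLC35B2 and LONP2 (0.942 to 0.894), and BOLA was most like DNAJC17, PRICKLE3, ARHGEF18, LY6E and SARS2 (0.916 to 0.850). These correlations describe 15 arrays in 4 groups and share the scaling of each array.

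Markers of other cells were counted in the same comparison of day 18. The 10 marker genes of antigen presenting cells on the array summed to 20.9, 25.1, 40.0 and 17.6 array medians in P18 and to 10.5, 17.6, 11.4 and 14.5 in NP18. All 7 tested were above 0, with a median log2 fold change of 0.68, and none was called by limma (4 had an unadjusted p below 0.05). Of all probes tested, 55.7% were above 0 in this comparison and 24.1% had an unadjusted p below 0.05. PTPRC, carried by all leukocytes, was at most 0.0367 in P18 and not well above background there. Of 14 T and natural killer cell markers tested 13 were above 0, and KLRB1 was called higher. Of the stromal markers 5 of 7 were below 0, with a median of -0.68 and COL1A1, a collagen chain, called lower at -1.97 ± 0.38 (limma, adjusted p = 0.0076). They summed to 602 to 767 array medians in P18 and 643 to 1123 in NP18. All 5 endothelial markers were below 0, with a median of -0.38, and PECAM1, an adhesion molecule of endothelium, was called lower at -1.54 ± 0.34 (adjusted p = 0.0148). Their sums overlapped, at 8.89 to 20.2 in P18 and 10.6 to 19.8 in NP18. The 5 epithelial markers had a median of -0.36, and none was called by limma (1 had an unadjusted p below 0.05, as did 24.1% of all probes). P18 replicate 3 had the highest sum for antigen presenting cells and for T and natural killer cells (140.0), and it was the highest array of PSMB9, B2M, BOLA-DMB and BoLA-DRB3. P18 replicate 4 had the highest trophoblast sum, 682, and it was the lowest P18 array of those same genes. Other members were ordered otherwise within P18. BOLA-DMA (33.9) and PSMB8 (13.2) were highest in replicate 1, BOLA-DOB (0.355) in replicate 2 and the class I probe BOLA (310) in replicate 4. PSMB8 was lowest in replicate 3, at 8.31. Without P18 replicate 3 the day-18 log2 fold change was 1.49 for PSMB9, 1.33 for B2M and 1.56 for BOLA-DMB, and each was still called. The part of these cells in the results was not tested.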

How the data were processed

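Endometrial RNA of 15 cows was hybridized to 1-color custom 60-mer Agilent arrays. The deposited scanner tables hold processed intensity values that the authors obtained with Agilent Feature Extraction 9.5 (background removed, no scaling across arrays). A log2 table the authors deposited too proved to be the same intensities scaled close to the 75th percentile; it served as an alternative. Each intensity was divided by the array median and log2 was taken, with control and outlier-flagged spots left out. Probes that passed background in 3 or more arrays (13164) were fitted with limma 3.58.1 (R 4.3.3), 1 mean per group over all 15 arrays. Calls needed a change over 2-fold at an adjusted p (Benjamini-Hochberg) under 0.05. Exact two-sided permutation tests (scipy 1.17.1) stand beside single values, with a smallest p of 0.0286 for 4 against 4 and 0.0571 for 3 against 4. The p-values measure the spread between arrays of a group, each of 1 cow, and the number of cows limits the precision. Differences between the scan days of P15, NP18 and P18 are not part of that spread. A fold of a probe not well above background in 1 group is a bound, from the dimmest probe well above background on each array.

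Members followed the naming rule, gene lists were counted by each gene's brightest probe, and likeness names up to 5 probes with the highest r; some results are not reported here. Members and lists were chosen with earlier results of these data known. Symbols (7130 probes) came from the files and RefSeq (ARS-UCD2.0), and CD74 and PSMB7 from the descriptions. The fit was tested on simulated data. Alternatives were other scalings, background corrections, filters, variance models and blocks, the methods' t-test, and leaving out each array.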

Additional observations from a re-analysis of the deposited data

Results flagged for a closer look

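A total of 6 values stood apart from the other arrays of their group by Dixon's test, among 66 groups of 4 examined, where chance gives about 1 in 20. In P18, the class I probe BOLA was lowest in replicate 2, at 171 array medians. In NP18, BOLA-DMA was lowest in replicate 1, at 7.89, and without that array its day-18 log2 fold change was 1.08. BOLA-DQB was highest in P18 replicate 2, at 8.99, and BOLA-DRB2 in P18 replicate 3, at 0.857. BOLA-DYA was highest in NP18 replicate 2, at 0.145, and MIC1 was lowest in that same array, at 0.160. The effect of pregnancy on PSMB9 differed between the days, with an interaction of 2.15 on the log2 scale in limma.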

How the results depend on the processing

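No log2 fold change of a member or related probe turned from called in 1 direction to called in the other under any alternative run. Signs changed in 2 of 603 values for P18 against NP18 and in 29 of 603 for P15 against NP15, where no effect was called.

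The 6 calls of P18 against NP18 became 0 with scan day as a random block and 3 with the methods' t-test after adjustment, and stood at 5 to 7 when any array was left out. The count of 0 for P15 against NP15 became 1 with array weights and with the unadjusted t-test, and 0 to 1 with an array left out (1 without NP15 replicate 3). For the difference between days, 1 call became 2 with quantile normalization, with the filter of all 15 arrays and with trend and robust variances, 3 with array weights, 5 with normexp background, 0 with the scan-day block and 0 with the replicate block, and 0 to 2 with an array left out (moved by NP15 replicates 2 and 3, P15 replicates 1 and 3, and NP18 replicate 1). For NP18 against NP15, 1 call became 0 with quantile normalization, normexp background, the filter of all 15 arrays, only the groups compared, the scan-day block, the replicate block and the adjusted t-test, 2 with no fold limit, and 3 with no filter, array weights and the unadjusted t-test. It was 0 to 3 with an array left out, moved by NP15 replicates 1, 2 and 4, all NP18 replicates and P18 replicates 2 and 3. The 4 calls of P18 against P15 became 0 with the scan-day block and were 4 to 5 with an array left out. The causes were not tested. Adding the 5 related MHC probes, chosen after seeing the data, gave 7 calls for P18 against NP18.

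Replicate numbers did not pair the arrays: correlations of same-numbered deviations ran from -0.26 to 0.30, with 3 of 21 pairs over 0.1. Over all probes, 63.5% of the calls of P18 against NP18 were higher, and 49.0% with quantile normalization. With scaling to the 75th percentile this share moved from 43.8 to 62.4% for P15 against NP15, from 40.4 to 25.6% for NP18 against NP15, from 63.7 to 31.2% for P18 against P15 and from 76.0 to 57.1% for the difference between days. Differences among probes near background, the HLA-B-like, BOLA-DYA, BOLA-DYB and BOLA-DQB probes above all, were limited by signal over background.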
